A study of Danio rerio with 2 samples.

Results

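The long arm of chromosome 4 was described across its 1953 loci, in zebrafish larvae homozygous for the lri12 mutation and in their wild-type clutch-mates. A locus was taken as a member when it lay on chromosome 4 and its start was at or past 28 Mb in the genome build Zv9, and when the authors' program had given it a usable estimate. These 1953 loci are 71.5% of the 2732 loci of chromosome 4 and 4.87% of the 40095 loci with a usable estimate. The other 779 loci of the chromosome served as the rest of chromosome 4, and 37363 loci lay on other chromosomes and unplaced scaffolds. Each genotype was 1 pool of 20 whole larvae at 5 days post-fertilization (dpf). Since no label says which gene lri12 disrupts, the genotypes could not be checked against a targeted gene. With 1 pool per genotype no difference has a replicate check, so none was tested.

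In zebrafish the long arm of chromosome 4 is known as heterochromatic and late replicating, with few conserved protein-coding genes and many repeats. Background knowledge places there large clusters of genes for NLR proteins, which are intracellular sensors of infection and damage, arrays of C2H2 zinc finger genes, which encode DNA-binding proteins, and tandem copies of 5S ribosomal RNA and of spliceosomal U1 and U6 RNA genes. The miR-430 array, whose microRNAs clear maternal messages in the early embryo, lies at the start of the arm. In natural strains a sex-linked region has been mapped to its far end. No sequence of these loci is shown, because no genome of the build Zv9 was used here.

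Small RNA genes filled much of the arm. Of its 1953 loci, 761 were small RNA genes, 762 carried a symbol derived from a sequenced clone, 329 carried no symbol, 46 carried an ordinary gene symbol, 36 were named as C2H2 zinc finger genes and 19 were named as NLR genes. The arm held 460 of all 707 U6 loci (65.1%) and 224 of all 382 U1 loci (58.6%). The rest of chromosome 4 held none of either. U6 RNA forms part of the catalytic core of the spliceosome, and U1 RNA recognises the 5′ splice site. U6 copies lay between 29737123 and 56645623 and U1 copies between 29709993 and 56870043, and their commonest lengths, as end minus start, were 107 and 164 bases.

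None of these U6 and U1 copies was seen in the RNA of either pool. All 460 U6 and all 224 U1 loci of the arm were listed at 0 FPKM in the mutant pool and in the wild-type pool. FPKM counts sequenced fragments per length of transcript and per size of library. Away from the arm 1 U6 locus was above 0, at 0.680 FPKM in the mutant and 0.932 FPKM in wild type, and 1 U1 locus stood at 1.54 FPKM in the mutant and was listed at 0 in wild type. The libraries were made from total RNA by a standard Illumina protocol, per the labels. Whether short RNA was kept, whether polyadenylated RNA was selected and how reads with many equal matches were counted is not given in the sources used here, so a value of 0 at these copies is a statement about the table only.

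The miR-430 array was likewise listed at 0. It lay between 28000731 and 28017085, just inside the arm limit, and held 55 of the 56 miR-430 loci of the table. The arm copies comprised 12 loci of miR-430a, 11 of miR-430b, 18 of miR-430c, 5 of miR-430i and 9 of miR-430j. The remaining copy, of miR-430a, lay on another chromosome and was also listed at 0 in both pools. The other locus on the arm with a microRNA in its name, BX548011.7,dre-mir-738 at 49787860 to 49789795, was listed at 0 in both. The first members past the limit were dre-mir-430a-23, dre-mir-430c-21 and dre-mir-430b-19, all at 0. Just before the limit lay CABZ01013139.1, at 2.54 FPKM in the mutant and 2.04 FPKM in wild type, CABZ01050664.1, at 1.55 and 1.39 FPKM in the mutant and in wild type, and a locus without symbol, at 1.15 FPKM in the mutant and 0.865 FPKM in wild type.

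Fewer loci were detected on the arm than on the rest of the chromosome, in both genotypes. A value above 0 was found for 998 of the 1953 arm loci (51.1%) in the mutant and for 990 (50.7%) in wild type. On the rest of chromosome 4, 684 of 779 loci (87.8%) were above 0 in the mutant and 683 (87.7%) in wild type. Of the 932 arm loci at 0 in both pools, 755 (81.0%) were small RNA genes and 174 carried clone-based symbols. Without small RNA genes, 992 of 1192 arm loci (83.2%) were above 0 in the mutant and 986 (82.7%) in wild type, against 93.3% of 730 loci on the rest of the chromosome in each pool. Across the other 24 chromosomes that share ran from 87.3% on chromosome 22 to 96.4% on chromosome 17 in the mutant. These shares include loci without a symbol, nearly all of which were above 0. In the mutant those were 329 of 329 on the arm and 107 of 108 on the rest of chromosome 4, so they say little about detection. Clone-based loci were above 0 in 74.3% on the arm and 74.0% on the rest in the mutant, and ordinary symbols in 93.5% and 99.5%. Over all 1953 arm loci, the same loci made up nearly all of the counts of both pools: 967 were above 0 in both pools, 31 in the mutant alone and 23 in wild type alone. Among the 31, the highest mutant value was 38.3 FPKM, at a 5S rRNA locus, and among the 23 the highest wild-type value was 0.689 FPKM.

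The detected loci of the arm were also at low levels. Their median was 0.462 FPKM in the mutant (quartiles 0.159 and 1.34) and 0.439 FPKM in wild type (quartiles 0.148 and 1.26). On the rest of chromosome 4 the medians were 3.62 FPKM in the mutant (quartiles 1.11 and 10.6) and 3.63 FPKM in wild type (quartiles 1.16 and 10.4). A mean over both pools of at least 1 FPKM was reached by 314 arm loci, and the genotypes were compared on those. Without small RNA genes, 25.9% of arm loci reached that mean, against 71.8% on the rest of the chromosome and between 57.8% and 73.1% on each of the other 24 chromosomes. The median over all loci other than small RNA genes was 0.286 FPKM on the arm, 3.02 FPKM on the rest of chromosome 4 and between 1.54 and 3.25 FPKM on the other chromosomes. In whole larvae, fewer cells with a transcript and less transcript per cell cannot be told apart.

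Levels differed between the windows on either side of the limit and were higher again towards the far end. In windows of 4 Mb, between 66.3% and 84.6% of loci other than small RNA genes reached 1 FPKM before the limit. The first window of the arm, from 28 Mb, stood at 32.5%, and the share was 21.2% from 32 Mb and 19.8% from 36 Mb. The windows from 40 Mb and 44 Mb were lowest, at 11.4% (15 loci) and 13.6% (18 loci). From there the share stood at 22.1% in the window from 48 Mb, 23.3% from 52 Mb, 34.4% from 56 Mb and 53.7% from 60 Mb. Median levels of detected loci followed a similar course in both pools. They were 0.224 FPKM in the mutant and 0.270 FPKM in wild type in the window from 40 Mb, and 1.32 FPKM in the mutant and 1.28 FPKM in wild type in the last window. Within the arm, small RNA genes were fewest in the window with the highest levels: 193 of the 325 loci from 44 Mb were small RNA genes, but only 6 of the 129 from 60 Mb. The other windows did not follow that order. From 40 Mb, where the fewest loci reached 1 FPKM, 39 of 171 loci were small RNA genes. From 28 Mb, where more did, 131 of 248 were.

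**Figure D1:**
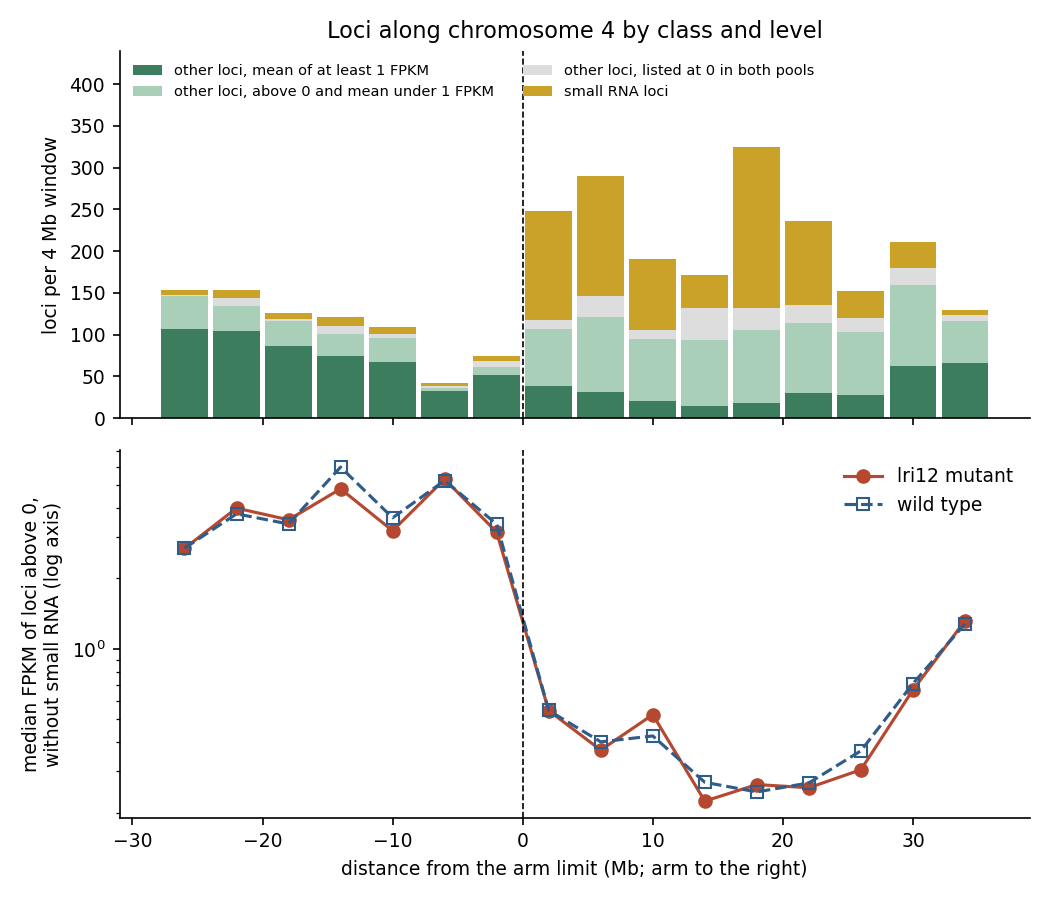
Upper panel: number of loci in each 4 Mb window of chromosome 4, split into small RNA loci and other loci by level; lower panel: median FPKM (log axis) of loci above 0 other than small RNA genes, in the lri12 mutant (filled circles) and wild type (open squares), against distance in Mb from the arm limit (dashed line). Before the limit most loci have a mean of at least 1 FPKM, and on the arm small RNA loci and loci under 1 FPKM prevail until the last window.

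Loci with an ordinary symbol and no clone-based one joined to it reached 1 FPKM near both ends of the arm. Of these 46 loci, 43 were above 0 in each pool and 28 reached 1 FPKM. Of those 28, 4 started before 30 Mb and 24 at or past 59 Mb. The 11 between these limits did not reach 1 FPKM, and the highest of them had a mean of 0.618 FPKM. Between the same limits, the joined locus RNH1 (16 of 23),si:rp71-1l17.2 at 49150542 to 49281035, whose first name is that of a ribonuclease inhibitor in mammals, counted as clone-based and had 2.18 FPKM in the mutant and 1.82 FPKM in wild type. A clone-based locus at 58087273 to 58096230, whose symbol is an older name of the deubiquitinase gene usp16 in RefSeq, had 2.69 FPKM in the mutant and 2.51 FPKM in wild type. Both were chosen after their values were seen. Beside the rest of chromosome 4, where 397 of 443 such loci (89.6%) reached 1 FPKM, the arm's share was 60.9%. None of the 28 differed 2-fold between genotypes, and their median log2 difference was 0.05. Of such loci compared on other chromosomes and scaffolds, 0.134% were 2-fold higher and 0.369% lower. The absence of a 2-fold difference therefore does not set these 28 apart.

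The highest of them was gstp1, at 29632401 to 29639074, which encodes a glutathione S-transferase that conjugates reactive compounds. It stood at 486 FPKM in the mutant and 449 FPKM in wild type. Its neighbour in name, gstp2, stood at 27.9 FPKM in the mutant and 32.3 FPKM in wild type, so the pair leaned in opposite directions by small amounts. CCT2 (1 of 2), for a subunit of the cytosolic chaperonin, was the last locus of the chromosome, at 62089652 to 62094013, with 224 FPKM in the mutant and 233 FPKM in wild type. RAB21, for a small GTPase of endosomes, had 50.6 FPKM in the mutant and 49.1 FPKM in wild type. CKAP4, for a membrane protein of the endoplasmic reticulum, had 40.5 FPKM in the mutant and 36.4 FPKM in wild type.

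Further genes of this group were chosen after their values were seen and do not stand for the whole group, which includes the ms4a17a loci described further on. The farnesyltransferase subunit gene fnta stood at 21.7 FPKM in the mutant and 20.9 FPKM in wild type. The nuclear pore gene nup50 stood at 19.8 FPKM in the mutant and 19.1 FPKM in wild type. The telomere repeat binding factor gene terfa had 8.75 FPKM in the mutant and 8.91 FPKM in wild type. For PSMB10, which in mammals encodes a subunit of the immunoproteasome, the values were 6.10 FPKM in the mutant and 6.51 FPKM in wild type. The widest gap among these was at pacsin2, for a membrane-bending protein, with 14.4 FPKM in the mutant and 11.9 FPKM in wild type.

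Zinc finger genes of the arm were nearly all detected and nearly all low. The 36 loci were 27 of the 34 copies named ZNF251, 7 of the 8 named ZNF660, and 1 each named ZNF48 and ZNF70. In each pool 35 were above 0, and their levels reached 4.28 FPKM in the mutant and 4.47 FPKM in wild type. Over all 36 the median was 0.461 FPKM in the mutant and 0.399 FPKM in wild type. Zinc finger genes of any name on other chromosomes and scaffolds, 177 loci, had a median of 3.59 FPKM in the mutant and 3.64 FPKM in wild type where detected. Copies of the same name differed less. As a mean of both pools, the median over ZNF251 copies was 0.401 FPKM on the arm and 0.887 FPKM over the 7 off it. The 1 ZNF660 copy off the arm had a mean of 0.0916 FPKM, below the median of 0.478 FPKM over the 7 on it. Of the 36 arm loci, 21 were higher in the mutant and 14 lower. As log2 of mutant FPKM + 1 over wild-type FPKM + 1, differences ran from -0.15 to 0.32. On that scale none of the 10 with a mean of at least 1 FPKM was 2-fold apart. Nor was any of the 144 such zinc finger loci on other chromosomes and scaffolds. For the lower arm loci, adding 1 FPKM shrinks differences, so a 2-fold change could go unseen.

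Among the zinc finger loci ZNF251 (20 of 34), at 46564602 to 46763158, was highest, at 4.28 FPKM in the mutant and 4.47 FPKM in wild type. ZNF48 followed, at 4.24 FPKM in the mutant and 3.92 FPKM in wild type. ZNF251 (30 of 34) had 3.57 FPKM in the mutant and 3.09 FPKM in wild type, and ZNF251 (29 of 34) leaned the other way, at 2.85 FPKM in the mutant and 3.22 FPKM in wild type. Copies that share a name may be near-identical, and reads that match several of them may have been divided between them.

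The NLR genes were lower still, on the arm and elsewhere. All 19 carried the name NLRX1, which in mammals is a mitochondrial NLR, and they were 19 of the 41 loci so numbered in the table. Each was above 0 in both pools, with a median of 0.110 FPKM in the mutant and 0.113 FPKM in wild type. One stood apart: NLRX1 (39 of 41), at 40007776 to 40018018, had 5.46 FPKM in the mutant and 4.21 FPKM in wild type, a log2 difference of 0.31. It lay beside BX465220.1, a clone-based locus at 39986822 to 39999046 with 40.9 FPKM in the mutant and 36.0 FPKM in wild type. As a mean of both pools, the median was 0.122 FPKM over these 19 loci and 0.106 FPKM over the 22 NLRX1 loci off the arm. No other NLR locus of the arm passed 0.391 FPKM in the mutant or 0.424 FPKM in wild type. Of the 19, 9 were higher in the mutant and 10 lower, and the lowest log2 difference was -0.11. A separate locus off the arm, nlrx1,pdzd3a, had 4.80 FPKM in the mutant and 4.62 FPKM in wild type. The numbered name alone does not say that the arm copies encode the mitochondrial protein.

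**Figure D2:**
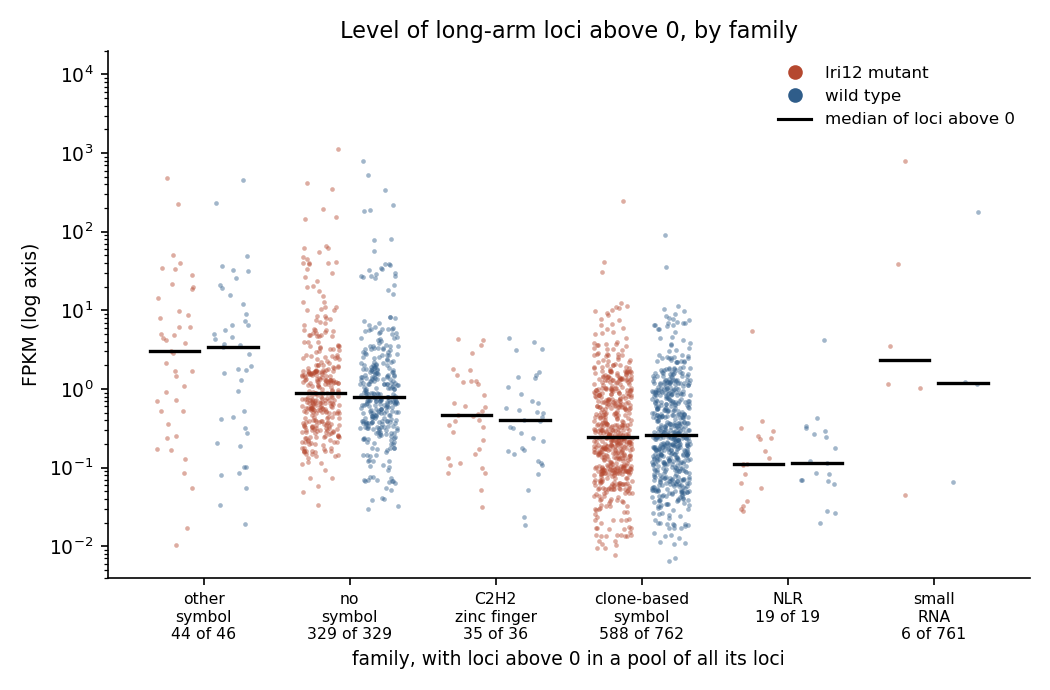
FPKM (log axis) of the long-arm loci above 0, by family, in the lri12 mutant (left in each pair) and wild type (right); each point is a locus and each black line the median of those above 0, and the labels give loci above 0 in either pool of all loci in the family. Medians fall near 3 FPKM for ordinary symbols and near 0.11 FPKM for NLR loci, and 6 of 761 small RNA loci are above 0.

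Genes that work with the families of the arm were looked up on any chromosome. Those that reached 1 FPKM were less than 2-fold apart on the log2(FPKM + 1) scale. Differences of 2-fold were rare in the whole table: of all 23582 loci compared, 0.755% were higher in the mutant by that much and 0.912% lower. Lists this short would seldom hold one, so its absence does not set these genes apart. By any amount, 50.4% of all loci compared were higher in the mutant. Of 16 genes listed as NLR and inflammasome partners, 13 were in the table and 7 reached 1 FPKM, with none 2-fold apart, 5 of the 7 higher in the mutant and a median log2 difference of 0.31. The caspase gene caspb had 41.9 FPKM in the mutant and 31.3 FPKM in wild type, and gsdmeb, for a pore-forming gasdermin, had 3.12 FPKM in the mutant and 4.17 FPKM in wild type. Of 25 genes for heterochromatin and late replication, 23 reached 1 FPKM, none was 2-fold apart and 12 were higher in the mutant. At the ends of that list were cbx5, for heterochromatin protein 1 alpha, with 87.1 FPKM in the mutant and 75.4 FPKM in wild type, and ehmt2, for a histone H3 methyltransferase, with 2.78 FPKM in the mutant and 3.15 FPKM in wild type. Of 29 genes for making 5S, spliceosomal and micro RNA, 26 reached 1 FPKM, with none 2-fold apart, 16 higher in the mutant and a median of 0.03. Here snapc1b, for a factor that starts snRNA transcription, had 6.03 FPKM in the mutant and 4.57 FPKM in wild type, and brf1a, for a factor of RNA polymerase III, had 1.92 FPKM in the mutant and 2.57 FPKM in wild type.

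Across the 314 compared loci the arm leaned slightly towards the mutant. Differences are given as log2 of mutant FPKM + 1 over wild-type FPKM + 1, which understates the change of low loci. Fold values are on the same scale. The median was 0.07, with quartiles of -0.10 and 0.27, and 191 loci (60.8%) were higher in the mutant and 123 lower. On the rest of chromosome 4 the median was 0.01 and 52.2% of 527 loci were higher in the mutant. Medians of the other 24 chromosomes ran from -0.04 on chromosome 19 to 0.05 on chromosome 23. The share of loci higher in the mutant ran from 39.0% on chromosome 19 to 63.8% on chromosome 23, so chromosome 23 passed the arm's share. The SD over loci was 0.56 on the arm and 0.25 on the rest of chromosome 4. Without small RNA genes it was 0.45 on the arm, below the 0.50 of chromosome 9. Pearson's r between the pools was taken on the log2(FPKM + 1) scale over the compared loci, which share both libraries. It was 0.941 on the arm, 0.987 on the rest of chromosome 4 and 0.981 elsewhere.

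Of the arm loci compared, 16 were at least 2-fold higher in the mutant (5.10%), and 0.755% of all 23582 loci compared were. In the other direction 4 arm loci were at least 2-fold lower (1.27%), beside 0.912% of all loci compared. With 0.1 FPKM added in place of 1 FPKM, 18 arm loci were 2-fold higher and 10 lower. The share of 2-fold higher loci on the other 24 chromosomes ran from 0.23% to 1.21%. On the rest of chromosome 4, 3 of 527 loci were 2-fold higher and 3 lower. Most of the arm's 2-fold loci were short: 13 of the 16 higher and 3 of the 4 lower had up to 500 bases. Of 766 arm loci tested in the authors' deposited table, 2 had a q-value under 0.05 there, both higher in the mutant. Of all 31308 loci tested, 0.115% were called higher and 0.233% lower. On the rest of chromosome 4, 4 loci had such a q-value, of 651 tested. No arm locus was called lower there, and the next lowest deposited q-value on the arm was 0.0636.

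**Figure D3:**
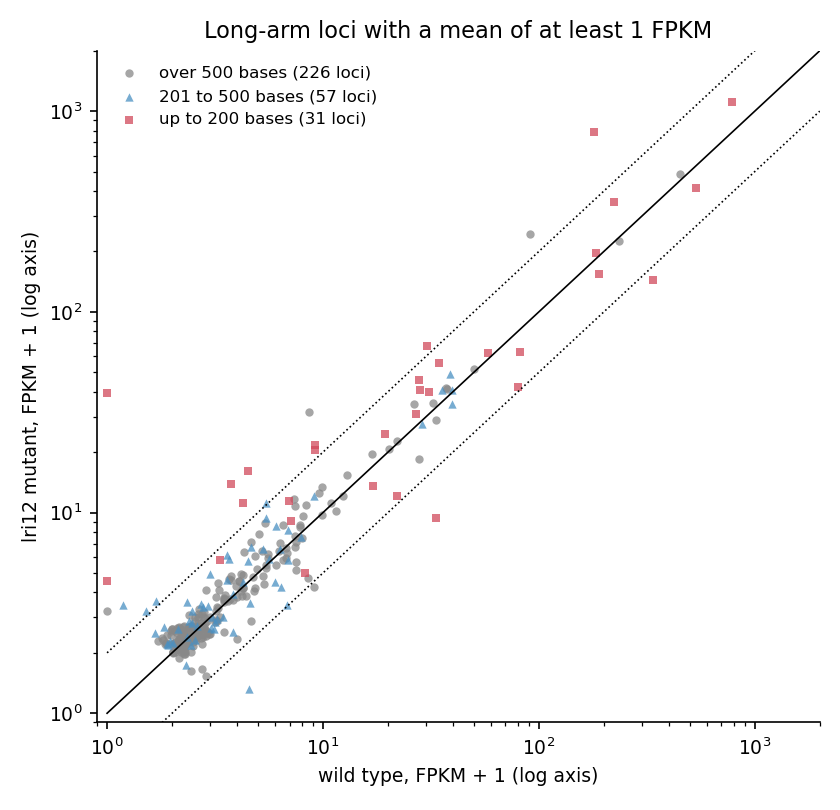
lri12 mutant (vertical) against wild type (horizontal), each as FPKM + 1 on a log axis, for the 314 long-arm loci with a mean of at least 1 FPKM, by length; the solid line marks equal values and the dotted lines 2-fold. Loci over 500 bases stay within the dotted lines with 4 exceptions, and loci up to 200 bases spread widely and include 9 of the 16 that are 2-fold higher.

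The contrast differed with the length of the locus. Among arm loci of up to 500 bases, 88 were compared, their median difference was 0.23 with an SD of 0.90, and 13 were 2-fold higher and 3 lower. Among the 226 of over 500 bases the median was 0.04 with an SD of 0.32, and 3 were 2-fold higher (1.33%) and 1 lower (0.442%). In the same class of over 500 bases, 2 loci on the rest of chromosome 4 were 2-fold higher and 3 lower of 516 compared. Elsewhere 0.344% were higher and 0.508% lower. Short loci away from chromosome 4 had as wide a spread, with an SD of 0.86, but were balanced: of 1499 loci with up to 500 bases, 86 were 2-fold higher and 100 lower, and 48.4% were above 0, against 68.2% on the arm. The rest of chromosome 4 had only 11 such loci. The shortest arm loci, up to 200 bases, had a median of 0.50 over 31 loci.

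**Figure D4:**
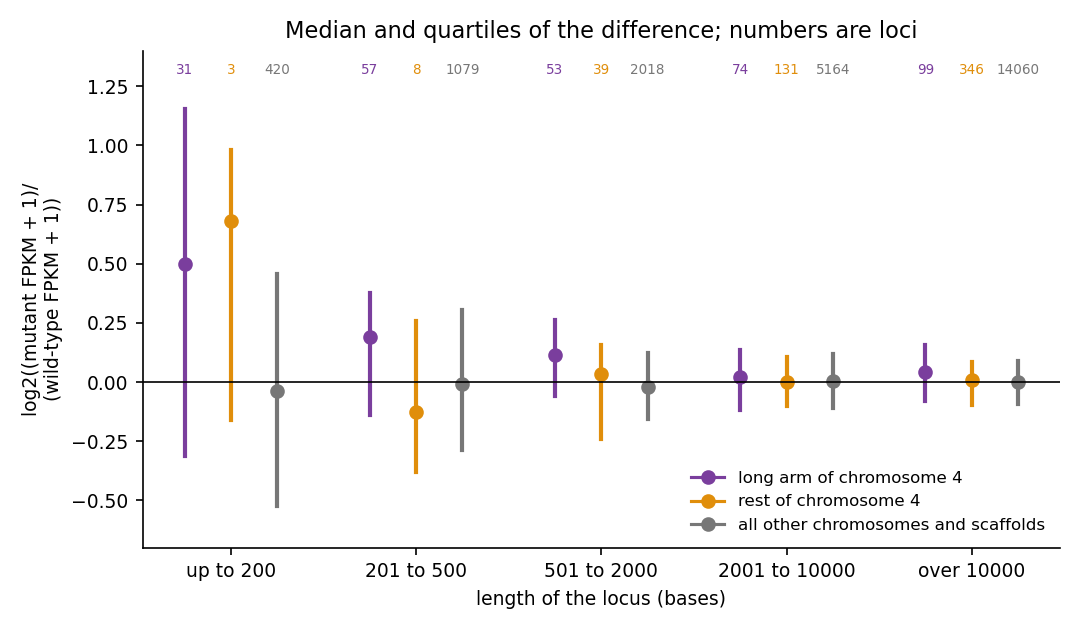
Median (point) and quartiles (bar) of log2 of mutant FPKM + 1 over wild-type FPKM + 1 by length of the locus in bases, for the long arm, the rest of chromosome 4 and all other chromosomes and scaffolds; the number of loci is printed above each bar. The arm median is 0.50 in the shortest class and 0.04 in the longest, and the other places lie near 0 except for the rest of chromosome 4 in its classes of 3 and 8 loci.

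The arm loci called in the authors' deposited table were a ribosomal RNA locus and the one beside it, and both were among the 10 highest loci of the arm. The 5.8S rRNA locus at 61299023 to 61299179 stood at 785 FPKM in the mutant and 180 FPKM in wild type, a log2 difference of 2.12 or 4.35-fold. Mature 5.8S rRNA is a part of the large ribosomal subunit, cut from the same precursor as 18S and 28S rRNA. AL935186.6, at 61294425 to 61298719 next to it, stood at 243 FPKM in the mutant and 90.4 FPKM in wild type, a log2 difference of 1.42 or 2.67-fold. No annotation used here says what AL935186.6 encodes. These are the 2 arm loci with a q-value under 0.05 in the authors' deposited table, at 0.0172 each.

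The loci around them were far lower, with log2 differences of at most 0.25. AL935186.3, AL935186.4 and AL935186.5, which share the position of AL935186.6, were listed at 0 in both pools. Upstream, at 61280523 to 61284871, a locus stood at 1.66 FPKM in the mutant and 1.57 FPKM in wild type. Another, at 61272155 to 61278316, stood at 1.27 FPKM in the mutant and 1.06 FPKM in wild type. Before it lay zgc:162948, at 61264307 to 61271185, with 3.94 FPKM in the mutant and 3.15 FPKM in wild type. Past the 5.8S locus, a locus at 61328792 to 61330567 stood at 0.245 FPKM in the mutant and 0.236 FPKM in wild type. These neighbours were chosen after their values were seen.

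Other ribosomal RNA copies of the arm were mostly silent in the table. Of 7 loci named 5.8S rRNA, 5 lay between 43907850 and 44017534 and were listed at 0 in both pools, as were all 30 clone-based loci around them. The seventh, at 49791968 to 49792122, stood at 3.54 FPKM in the mutant and was listed at 0 in wild type. Few loci named 5S rRNA, a separate RNA of the large subunit, lay on the arm. It held 14 of the 1982 in the table (0.706%), beside 34 on the rest of chromosome 4 and 1934 elsewhere. Of the 14, 4 were above 0 in the mutant and 3 in wild type. The 5S locus at 61935165 to 61935282, of 117 bases, stood at 38.3 FPKM in the mutant and was listed at 0 in wild type, with a q-value of 0.999 in the authors' deposited table. The 5S locus at 58184724 to 58208905 stood at 1.17 FPKM in the mutant and 1.14 FPKM in wild type. Away from chromosome 4 the 5S loci summed to 1136 FPKM in the mutant and 1620 FPKM in wild type, the opposite direction to the locus at 61935165. That sum rests on few loci: 58 were above 0 in the mutant and 57 in wild type. The highest single values were 424 FPKM in the mutant and 590 FPKM in wild type. How much ribosomal RNA each library held is not given in the sources used here, and its part in these differences was not tested.

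Apart from ribosomal RNA, si:dkey-72l17.2 had the largest difference of any arm locus over 500 bases that was above 0 in both pools. This clone-based locus at 46096134 to 46102736 stood at 30.9 FPKM in the mutant and 7.66 FPKM in wild type. On the scale of FPKM + 1 that is a log2 difference of 1.88 or 3.68-fold. The q-value of si:dkey-72l17.2 in the authors' deposited table was 0.999. Its neighbours in name were barely detected: si:dkey-72l17.1 had 0.144 FPKM in the mutant and 0.0318 FPKM in wild type, and si:dkey-72l17.5 had 0.0476 FPKM in the mutant and 0.0862 FPKM in wild type. BX511182.1, at 31722937 to 31810564, stood at 2.25 FPKM in the mutant and was listed at 0 in wild type. In the other direction CABZ01015787.1, at 60547163 to 60554478, had 3.28 FPKM in the mutant and 8.08 FPKM in wild type. That is 2.12-fold lower in the mutant on the scale of FPKM + 1.

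Loci without a symbol made up most of the remaining 2-fold differences. There were 10 of them among the 16 higher loci, of 136 to 400 bases. Their values ran from 2.24 to 66.2 FPKM in the mutant and from 0.180 to 29.3 FPKM in wild type, with log2 differences from 1.04 to 1.89, and no q-value in the authors' deposited table was under 0.999. Loci without a symbol were 154 of the 314 arm loci compared. Away from chromosome 4 they were also the larger part, 92 of the 159 that were 2-fold higher. Of compared loci without a symbol, 6.49% were 2-fold higher on the arm and 2.06% away from chromosome 4. Lower by that much were 1.95% and 2.55%. The locus at 57305301 to 57305475 stood at 12.8 FPKM in the mutant and 2.73 FPKM in wild type. The locus at 44804063 to 44804217 stood at 15.1 FPKM in the mutant and 3.50 FPKM in wild type, and the locus at 53920196 to 53920332 at 66.2 FPKM in the mutant and 29.3 FPKM in wild type.

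Others without a symbol were lower in the mutant. The locus at 52610993 to 52611108, of 115 bases, had 143 FPKM in the mutant and 336 FPKM in wild type, 2.34-fold lower. A longer locus just before it, at 52605584 to 52609955, had 17.5 FPKM in the mutant and 26.7 FPKM in wild type, so both of this pair were lower. The locus at 52441588 to 52441744 had 8.39 FPKM in the mutant and 32.5 FPKM in wild type, a log2 difference of -1.83. The fourth of the 2-fold lower loci, at 35713769 to 35713990, had 0.320 FPKM in the mutant and 3.55 FPKM in wild type.

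Short loci also carried most of the arm's summed FPKM, a sum that is per length and so not an amount of RNA. Loci of up to 200 bases held 60.8% of it in the mutant and 57.8% in wild type. The arm summed to 6254 FPKM in the mutant (0.678% of the table) and 5108 FPKM in wild type (0.571%). The 10 highest loci held 65.8% of the arm's sum in the mutant and 62.6% in wild type, and 7 of those 10 had up to 200 bases and 6 had no symbol. The highest of all, at 46351710 to 46351816 and of 106 bases, stood at 1115 FPKM in the mutant and 788 FPKM in wild type. The next without a symbol, at 51620180 to 51620289, leaned the other way, at 414 FPKM in the mutant and 531 FPKM in wild type. The locus at 53020088 to 53020205 stood at 353 FPKM in the mutant and 222 FPKM in wild type. Without the 5.8S locus and AL935186.6 the arm summed to 5225 FPKM in the mutant and 4838 FPKM in wild type, so those loci made most of the gap between the pools.

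A gene family near the far end, ms4a17a, leaned one way along a stretch. Genes of the MS4A family encode small membrane proteins with several membrane spans. All 8 loci of the table with this name lay between 60561221 and 60816702. Their summed level was 118 FPKM in the mutant and 97.3 FPKM in wild type, and 7 of the 8 were higher in the mutant, with a median log2 difference of 0.37 and none 2-fold apart. Highest were ms4a17a.11, at 34.2 FPKM in the mutant and 31.4 FPKM in wild type, and ms4a17a.8, at 33.6 FPKM in the mutant and 25.5 FPKM in wild type.

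The bundle that holds ms4a17a.8 is 1 span, 60650929 to 60816702, given to 9 loci, and all 9 were higher in the mutant, by log2 differences of at least 0.21. The joined locus ms4a17a.4,ms4a17a.5 had 7.90 FPKM in the mutant and 4.37 FPKM in wild type. In the same bundle CU694374.1 had 1.47 FPKM in the mutant and 0.232 FPKM in wild type, at a mean under 1 FPKM. Just past the bundle FP015791.1 had 10.6 FPKM in the mutant and 6.38 FPKM in wild type. Further on si:dkey-240n22.4 was lower, at 1.89 FPKM in the mutant and 3.66 FPKM in wild type. Past it, si:dkey-240n22.6 was higher, at 0.653 FPKM in the mutant and 0.479 FPKM in wild type. On the near side directions were mixed too: ms4a17a.11 was higher in the mutant and CABZ01015787.1 lower, as given above. There ms4a17a.14 had 4.15 FPKM in the mutant and 6.47 FPKM in wild type, and si:dkey-204h11.10 had 0.300 FPKM in the mutant and 0.200 FPKM in wild type. RefSeq gives si:ch73-132m10.4 as an older name of ms4a17a.17. Of its 2 loci, 1 had 3.70 FPKM in the mutant and 7.51 FPKM in wild type, and the other had 1.43 FPKM in the mutant and 1.19 FPKM in wild type. The stretch was chosen after its values were seen, and loci in 1 bundle may share reads.

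**Figure D5:**
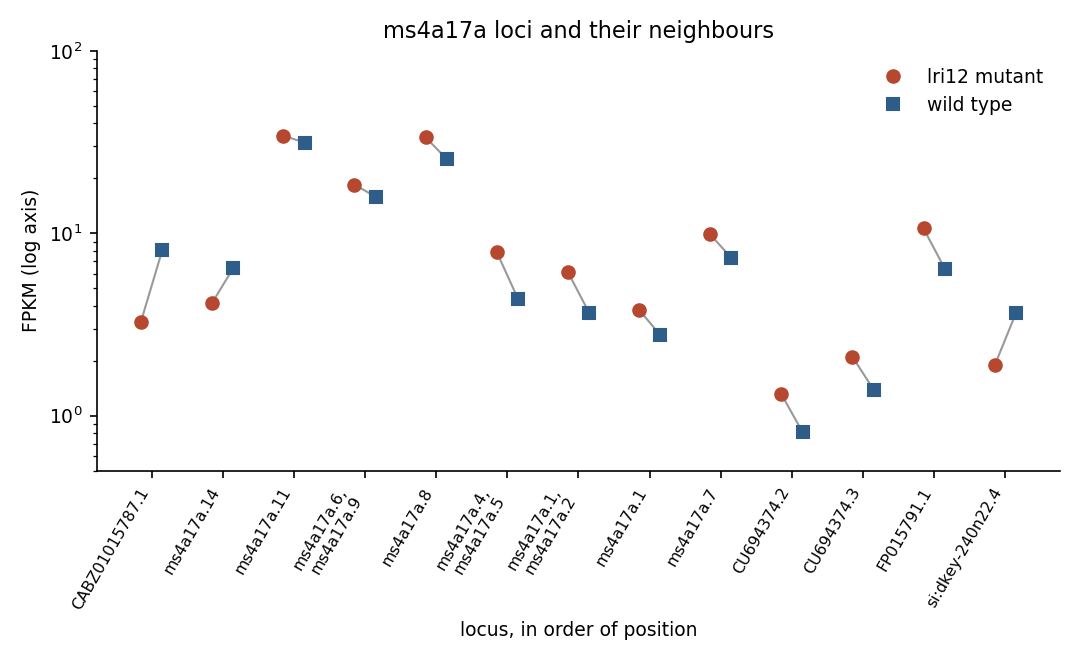
FPKM (log axis) in the lri12 mutant (circles, left) and wild type (squares, right) of the ms4a17a loci and their neighbours with a mean of at least 1 FPKM, in order of position, those of the bundle sharing 1 position; grey lines join the values of a locus. From ms4a17a.11 to FP015791.1 each plotted locus is higher in the mutant, and the first 2 and the last are lower.

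Positions are those of the deposited table in Zv9, and whether they count from 0 or 1 is not stated there. Of the arm loci, 219 (11.2%) share their position with another locus, so the position is then that of the bundle. Among tissue markers, the 3 exocrine pancreas markers were each at least 2-fold lower in the mutant and summed to 1518 FPKM in the mutant and 3519 FPKM in wild type. The 2 hepatocyte markers summed to 787 FPKM in the mutant and 1347 FPKM in wild type, with fabp10a 2.23-fold lower. The 2 intestine markers summed to 517 FPKM in the mutant and 990 FPKM in wild type, with fabp6 2.26-fold lower. The 2 lens markers were higher and summed to 2230.5 FPKM in the mutant and 1638 FPKM in wild type. The 7 immune cell markers summed to 107 FPKM in the mutant and 123 FPKM in wild type. Of these sums lyz alone held 72.4 FPKM in the mutant and 86.7 FPKM in wild type. The 5 germ cell markers summed to 3.16 FPKM in the mutant and 3.97 FPKM in wild type, though nanos3 was higher in the mutant. The 5 markers of cycling cells summed to 229 FPKM in the mutant and 213 FPKM in wild type. The 5 fast muscle markers summed to 48270 FPKM in the mutant and 45630 FPKM in wild type, with 3 higher in the mutant and tnnt3b and ckma lower. The 5 neuron markers summed to 280 FPKM in the mutant and 279 FPKM in wild type, with 3 higher in the mutant. The 3 skin markers summed to 9139 FPKM in the mutant and 7888 FPKM in wild type, with 2 higher in the mutant. The part of tissue composition in the differences on the arm was not tested.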

How the data were processed

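RNA was sequenced from 1 pool of lri12 mutant larvae and 1 pool of wild-type siblings. The deposited table has 40114 loci and the columns of a Cuffdiff comparison, per the file headers. Its 2 value columns were taken as FPKM computed by the authors, since no label states the unit. The q-values are the authors' deposited ones and were only quoted. CASAVA, Bowtie and the build Zv9 appear in the submitters' processing notes. Versions, annotation, strand and the treatment of reads with several matches are not given there or in the labels.

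From these values log2((mutant FPKM + 1)/(wild-type FPKM + 1)) was computed with pandas 2.3.3 for loci whose mean reached 1 FPKM, by a script tested on simulated data. Loci at least 2-fold apart were counted as a rule of size, with no test. Families were assigned by symbol, and 19 loci with failed estimates, 0 of them on the arm, were left out. Absolute depth is unknown: among 1786 low loci the commonest log2 ratio was -0.15, which is 1.11 mutant reads per wild-type read if the read numbers are equal, so no interval is given.

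Loci were named from among those that met fixed rules, and not all that met them are given in the text. The rules took the 10 highest means, and the 10 highest and 10 lowest differences at a mean of at least 5 FPKM. They also took the 5 and 5 over 500 bases at a mean of at least 2 FPKM, and up to 4 by mean in each family. Loci with a deposited q-value under 0.05, microRNAs, the 3 loci nearest the limit on each side, and up to 2 from each partner list were included too. Others were chosen after their values were seen. The members, families and lists were chosen with earlier results of these data known. Gene names were also looked up in RefSeq: of 774 clone-based symbols on the arm, 64 matched a symbol and 15 an older name.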

Additional observations from a re-analysis of the deposited data

How the results depend on the processing

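No paired analysis was possible because each genotype is 1 pool. The median difference on the arm kept its direction under all alternatives run, from 0.02 to 0.13. The share of arm loci above 0 was 85.0% in the mutant and 84.6% in wild type for loci over 500 bases, 99.5% and 99.1% for loci the authors tested, 41.2% and 40.8% for loci with a symbol, 42.3% and 41.5% from 0.1 FPKM, and 83.2% and 82.7% without small RNA genes. On the rest of chromosome 4 it was 76.7% in the mutant and 76.5% in wild type with the limit at 32 Mb, 90.3% and 90.2% over 500 bases, 99.7% in each for tested loci, 83.7% and 83.6% from 0.1 FPKM, and 93.3% in each without small RNA genes. The arm median became 0.735 FPKM in the mutant and 0.697 FPKM in wild type for tested loci, and 0.272 and 0.279 FPKM for loci with a symbol. The 16 loci 2-fold higher became 18 with a pseudocount of 0.1 FPKM, 7 with a pseudocount of 5 FPKM, 3 over 500 bases and 6 with a symbol. The 4 lower became 10 with a pseudocount of 0.1 FPKM, 2 with 5 FPKM, and 1 each over 500 bases and with a symbol. Of 43 loci that met the naming rules, including some not given in the text, 2 passed 2-fold only with 0.1 FPKM. With 5 FPKM 5 lost it, and none reversed. Leaving out short loci or loci without symbol counts fewer loci, and a larger pseudocount shrinks each difference by arithmetic. Nearly all tested loci were above 0 on the arm and on the rest of chromosome 4, so that alternative cannot compare detection. The cause of the remaining changes was not tested. The alternative without small RNA genes was chosen after seeing the data. With 1 pool each, biological spread is unknown, and short loci rest on few positions.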

Other observations

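Loci on 610 unplaced scaffolds, 1810 in all, held further copies of the U6 and U1 genes that are many on the arm, with 153 U6 loci and 107 U1 loci. They also held 68 loci of 5S rRNA, which are few on the arm, and 1 of 5.8S rRNA. Without small RNA genes, 49.9% of the scaffold loci reached a mean of 1 FPKM, which lies between the 25.9% of the arm and the lowest share of any other chromosome, 57.8%. On the scaffolds 1.21% of the compared loci were 2-fold higher in the mutant and 2.29% lower.

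Some way past the miR-430 array, which ended at 28017085, 2 loci without symbol were seen in the mutant pool alone. The locus at 28101687 to 28102163 stood at 0.578 FPKM in the mutant and was listed at 0 in wild type, and the locus at 28105390 to 28105883 stood at 0.546 FPKM in the mutant and was listed at 0 in wild type. The q-value of each in the authors' deposited table was 0.125. Between these loci, a locus without symbol at 28104380 to 28105133 had 0.386 FPKM in the mutant and 0.0329 FPKM in wild type. Nearer the array, another locus without symbol, starting at 28028454, had 0.282 FPKM in the mutant and 0.854 FPKM in wild type.

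Further along, 8 loci without symbol lay together at 48074138 to 48085214. They were all above 1 FPKM in mean, 6 of the 8 were higher in the mutant, and their log2 differences ran from -0.06 to 0.56. The highest of the 8 had 48.1 FPKM in the mutant and 37.9 FPKM in wild type.

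Among the clone-based loci of the arm, 6 carried an older name of a zinc finger gene in RefSeq. The locus of znf1015 had 6.02 FPKM in the mutant and 5.31 FPKM in wild type. That was above every arm locus that the table itself names as a zinc finger gene. The locus of znf1141 had 3.77 FPKM in the mutant and 3.75 FPKM in wild type. Another clone-based locus carried an older name of the NLR gene nlrc9 and had 0.0820 FPKM in the mutant and 0.0674 FPKM in wild type. Counts by family in the report therefore hold for the names in the table.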
